A study of Mus musculus with 3 samples.

Results

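The 40 genes described here encode actin, the proteins that turn actin filaments over, branch, cap, bundle and anchor them, the motors and coats that run on them, and the small GTPases that steer them, together with the intermediate filament gene Vim. They were chosen by symbol, as a list of actin cytoskeleton and motility genes, with earlier results of these data known. They make up 40 of the 55536 gene rows in the deposited gene tables. They fall into 13 functional classes. All 40 symbols were found, and Myl12b was found under 2 identifiers.

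The RNA came from the cytosolic fraction of bone-marrow-derived macrophages of the C57BL/6J mouse strain, which are grown in culture from marrow precursors. All the cells had received Lipid A, the part of bacterial lipopolysaccharide that activates Toll-like receptor signalling, at 100 ng/ml for 20 min. Ribosomal RNA was depleted and the remaining total RNA was sequenced in 3 libraries of this 1 condition, numbered replicates 1 to 3. The labels give all of them the same donor identifier and no age or sex, so the SDs below measure the spread between these libraries, which may be partly technical. Neither unstimulated cells nor nuclear RNA is analysed here, and the values are levels at 1 time, from which no induction or repression can be read.

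Actin monomers bound to ATP add to the fast-growing barbed end of a filament and leave from the pointed end after ATP hydrolysis. Profilin and thymosin hold the pool of monomers, cofilin cuts old filaments, and the Arp2/3 complex starts new branches where WASP and WAVE proteins activate it. In macrophages this network drives membrane ruffles, phagocytic cups and podosomes, and myosin II with RhoA signalling contracts it.

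Of 27392626, 81597761 and 37176950 expected counts listed for replicates 1, 2 and 3, 673255, 1906348 and 912521 fell in the 40 genes. TPM, a transcript abundance corrected for length, is shared among all rows of a library. Nuclear-encoded protein-coding genes held 25.0%, 22% and 19.6% of it, which is not their share of reads. Levels are therefore given both as deposited TPM and as rescaled TPM, in which the nuclear-encoded protein-coding genes of each library sum to 1000000. All 8 macrophage markers were at 1 TPM or more in every library (Lyz2 was the highest), with summed levels of 7050, 5295 and 4882 TPM. None of 9 fibroblast and smooth muscle markers reached 1 TPM in all libraries, their sum was at most 0.270 TPM, and Cnn1, Des and Myh11 were at 0. Of 5 platelet markers, Pf4 alone reached 1 TPM in all libraries, at 152, 153 and 185 TPM. The summed levels of the 5 were 153, 154 and 187 TPM. The platelet gene Ppbp was at 0.930, 0.580 and 1.11 TPM, and Itga2b, Gp9 and Gp1bb averaged 0.173, 0.0733 and 0.0267 TPM. The part of platelet RNA in the members' levels was not tested. Of 5 neutrophil markers 3 reached 1 TPM in all libraries, with summed levels of 18.1 to 26.9 TPM. None of the 4 T and B cell or 3 erythroid markers did. No source used here states whether the libraries keep strand, and signal from a gene and an antisense partner may be mixed.

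Of the 40 genes, 39 were at 1 TPM or more in every library, against 16.8% of all gene rows and 40.5% of the 22015 nuclear-encoded protein-coding genes. The exception was Fscn1. The 40 genes held 3.64%, 3.53% and 3.94% of nuclear protein-coding TPM in replicates 1, 2 and 3, a mean of 3.70% ± 0.210 (SD, n = 3). By expected counts, which are not divided by length, the share was 2.89% ± 0.118. Their median level was 92.0 TPM, beside 6.66 TPM over the 9165 nuclear protein-coding genes that averaged 1 TPM or more. The list was made with earlier results of these data known, so these contrasts describe the chosen genes only. By mean level, 2 genes stood above 1000 TPM, 19 above 100 TPM with those included, 18 between 10 and 100 TPM, and 3 below 10 TPM. Among the 100 highest nuclear protein-coding genes 7 were members.

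**Figure D1:**
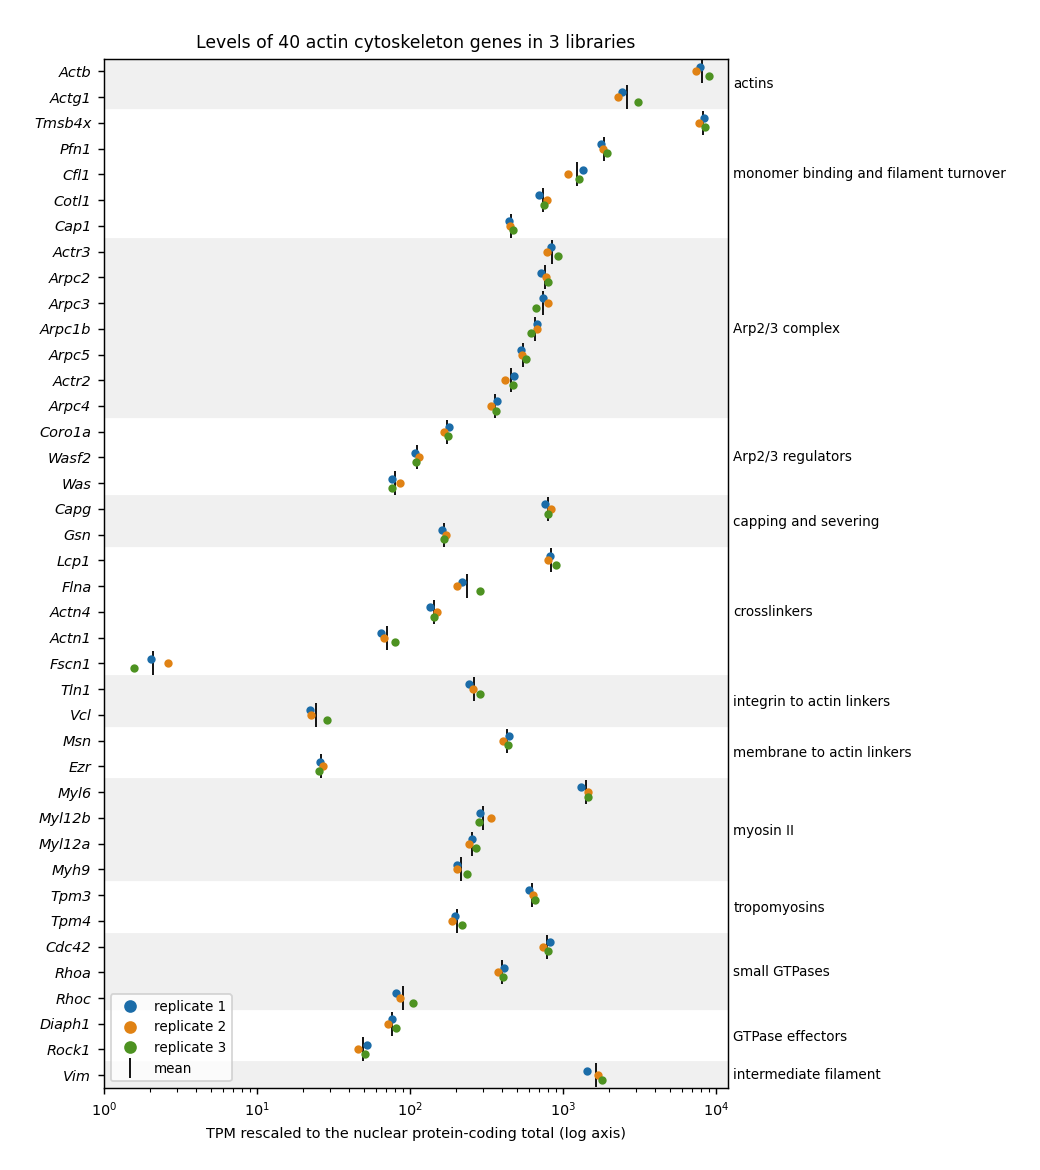
Rescaled TPM of the 40 genes on a log axis, grouped by functional class, with a point for each of the 3 libraries and a vertical tick at their mean. Tmsb4x and Actb lie at the top, near 8233 and 8073 rescaled TPM on average, the subunits of the Arp2/3 complex lie close together, and Fscn1 lies lowest at 2.09.

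Tmsb4x and Actb were the highest members and lay at the same level within their spread. Tmsb4x, which encodes thymosin beta-4, the main sequestering protein of actin monomers, stood at 2101, 1701 and 1680 TPM in replicates 1, 2 and 3 (mean 1828 ± 237, SD, n = 3). Actb, the gene of beta-actin, stood at 1961, 1622 and 1767 TPM (mean 1783 ± 170). Tmsb4x was above Actb in 2 of the 3 libraries, and their ranges overlapped. Together they held 44.0% ± 1.09 of the TPM of all 40 genes. Actb, at 142903115 to 142906754 on the minus strand of chromosome 5 of mm10, had 166853, 454521 and 234763 expected counts. Tmsb4x, a shorter transcript at 167207093 to 167209315 on the minus strand of chromosome X, had 56886, 155322 and 72931. The order by counts therefore differed from the order per length.

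Actg1 encodes gamma-actin, the other non-muscle actin, and the first 90 coding bases of both genes are shown because the reads that separate them rest on such differences. The sequences come from the GENCODE M21 transcripts Actb-201 and Actg1-202, read from the start codon, and capitals mark the 16 bases that differ.
Actb: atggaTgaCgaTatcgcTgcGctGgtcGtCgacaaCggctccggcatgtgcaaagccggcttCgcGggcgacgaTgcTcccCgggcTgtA
Actg1: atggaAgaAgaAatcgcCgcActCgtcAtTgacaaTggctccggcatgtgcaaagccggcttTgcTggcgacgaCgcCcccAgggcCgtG
Over the whole coding length of 1125 bases the sequences were 88.6% identical. The longest run shared by the whole transcripts was 62 bases. Of all 31-base words in the leading transcripts, 35.1% of those in Actb and 57.1% of those in Actg1 also occur in other annotated genes, 44 genes for Actb and 34 for Actg1.

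Beta-actin RNA exceeded gamma-actin RNA in every library. Actg1 stood at 609, 507 and 607 TPM (mean 574 ± 58.5, SD, n = 3), so the log2 ratio of Actb over Actg1 was 1.69, 1.68 and 1.54 (mean 1.64 ± 0.082), a 3.11-fold difference. The groups of 3 values did not overlap. The other 4 actin genes, Acta1, Acta2, Actc1 and Actg2 of striated and smooth muscle, reached at most 0.0800 TPM in any library, and Actc1 and Actg2 were listed at 0. Gm12715, a processed pseudogene that shares 53.6% of the 31-base words of Actg1, averaged 41.4 rescaled TPM in the gene table and 0.837 in the second transcript table.

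Ratios between a member and its nearest relatives were formed within each library as differences of log2(TPM + 0.1). On rescaled TPM the ratio moved by over 1.5 times in 4 pairs, whose relatives Cap2, Wasf1, Tln2 and Actr3b lay near 0. Of 30 such pairs, 27 had the first named gene higher in all 3 libraries and 3 had it lower in all 3. In some pairs both genes were members. The pairs were chosen with earlier results of these data known, so these counts describe the chosen pairs only. The exact two-sided sign-flip permutation test gave p = 0.25 for each of the 30 pairs, with the same value after Benjamini-Hochberg adjustment. This is the smallest p that 3 libraries allow, so no pair could reach 0.05. The mean log2 ratio was over 3 for 13 pairs and between -1 and 1 for 6 pairs, and in 8 pairs the relative averaged under 1 TPM. For such low relatives the fold depends on the pseudocount, and levels are given instead.

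**Figure D2:**
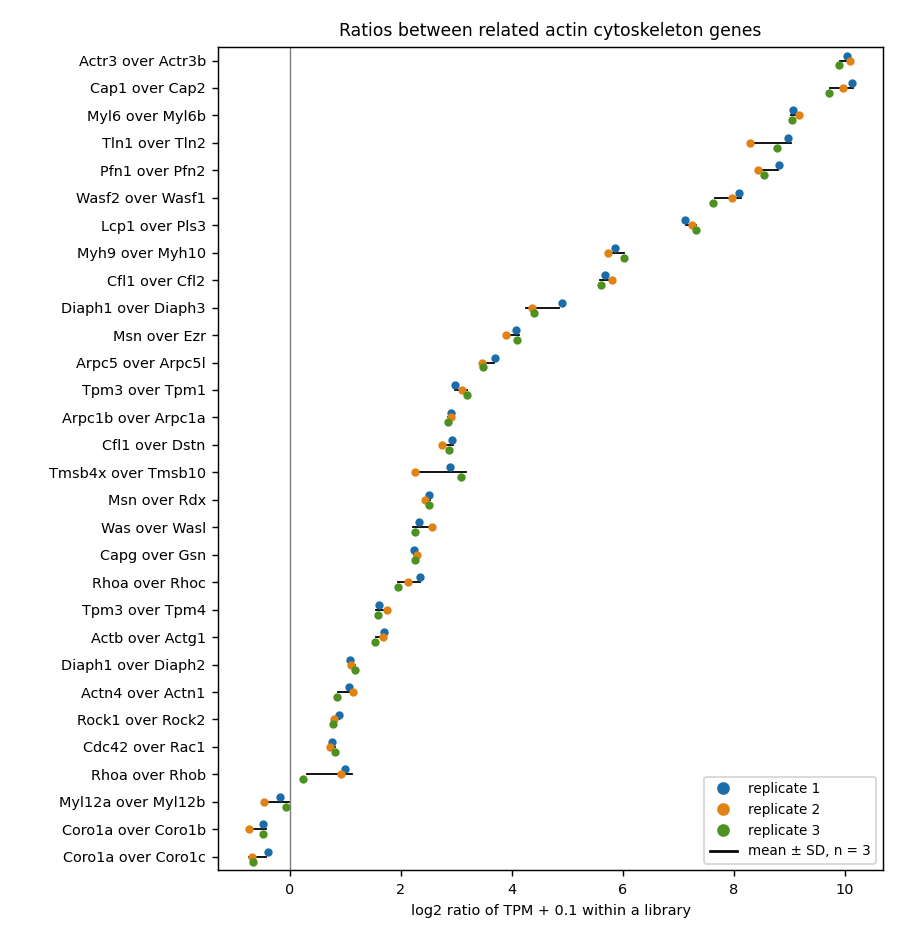
Log2 ratio of TPM + 0.1 for 30 pairs of related genes, the first named gene over the second, with a point for each library and a line for the mean ± SD (n = 3). Most pairs lie to the right of 0, and the 3 pairs to its left are Myl12a over Myl12b (-0.23) and Coro1a over Coro1b and Coro1c (-0.57 and -0.58).

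The genes for monomer binding and filament turnover had a median of 274 TPM over 5 members. Pfn1, which encodes profilin 1 and feeds monomers to growing ends, stood at 445, 402 and 380 TPM, while its relative Pfn2 was at 0.89, 1.06 and 0.92 TPM. Cfl1, the gene of the severing protein cofilin 1, stood at 336, 237 and 249 TPM, with replicate 1 the highest. On rescaled TPM it stood at 1344, 1076 and 1270, and replicates 1 and 3 lay closer together. Its relatives were lower in every library: Dstn, which encodes destrin, averaged 37.9 ± 5.40 TPM and the muscle-type Cfl2 5.22 ± 1.18 TPM (SD, n = 3). The log2 ratio of Cfl1 over Dstn was 2.84 ± 0.10. Cotl1, whose product coactosin-like protein binds filaments, stood at 165 ± 15.8 TPM, and Cap1, which recycles monomers with cofilin, at 101 ± 9.61 TPM, against 0 to 0.0100 TPM for Cap2. Tmsb10, the closest relative of Tmsb4x, was the highest of the paralogs outside the list, at 284, 355 and 197 TPM. Its order over libraries differed from that of Tmsb4x, so their log2 ratio ranged from 2.26 in replicate 2 to 3.09 in replicate 3.

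The 7 subunits of the Arp2/3 complex lay within a 2.38-fold range of mean TPM. Actr3, 1 of the 2 actin-related subunits, was the highest at 210, 174 and 182 TPM, and Arpc4 the lowest at 92.0, 74.9 and 71.4 TPM. Between them lay Arpc2 (168 ± 11.4 TPM), Arpc3 (164 ± 29.8), Arpc1b (147 ± 23.8), Arpc5 (121 ± 10.5) and Actr2 (101 ± 15.5; SD, n = 3 throughout). Together the 7 genes held 0.436%, 0.434% and 0.441% of nuclear protein-coding TPM, so their summed share differed little between libraries. Single subunits moved more than the sum: rescaled Arpc3 was at 746, 801 and 664, and rescaled Arpc2 at 716, 773 and 794, so replicate 3 was the lowest for Arpc3 and the highest for Arpc2.

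The alternative subunits of the complex were lower. Arpc1b exceeded Arpc1a (19.8 ± 2.82 TPM) by a log2 ratio of 2.91, 2.89 and 2.85, and Arpc5 exceeded Arpc5l (10.3 ± 0.368 TPM) by 3.69, 3.47 and 3.49. The ratio of Arpc1b over Arpc1a had an SD of 0.031 over libraries. Actr3b, the relative of Actr3, was at 0.060 to 0.10 TPM.

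The 3 regulators of the complex on the list, Was, Wasf2 and Coro1a, had a median of 24.6 TPM, against 147 TPM for its subunits. Was, which encodes the blood-cell protein WASP, stood at 19.0, 18.8 and 15.0 TPM, and its widely expressed relative Wasl at 3.73, 3.12 and 3.08 TPM. Wasf2, the gene of WAVE2, stood at 27.1, 25.0 and 21.6 TPM, while Wasf1 was at 0, 0 and 0.0100 TPM and Wasf3 was listed at 0. Within libraries the median log2 TPM of the Arp2/3 subunits exceeded that of the regulators by 2.64, 2.57 and 2.49 (mean 2.57 ± 0.075, SD, n = 3). The turnover genes exceeded the Arp2/3 subunits by 0.98, 0.67 and 1.03 (mean 0.89 ± 0.20).

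Coro1a, which encodes the leukocyte coronin that binds filaments and the Arp2/3 complex, lay below both of its close relatives in every library. It stood at 45.1, 36.7 and 34.7 TPM, against 63.4, 61.1 and 48.4 TPM for Coro1b and 59.6, 59.2 and 55.2 TPM for Coro1c. Neither relative overlapped with Coro1a. The log2 ratio was -0.49, -0.73 and -0.48 over Coro1b and -0.40, -0.69 and -0.67 over Coro1c.

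Among genes that cap or sever filaments, Capg stood above Gsn in every library. Capg, a macrophage capping protein of the gelsolin family, stood at 191, 185 and 157 TPM, and Gsn, the gene of gelsolin itself, at 40.4, 37.6 and 32.9 TPM. Their log2 ratio of 2.24, 2.29 and 2.25 had the smallest SD of the 30 pairs, 0.025, and by expected counts, which are not divided by length, it was 1.1.

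The crosslinkers spanned the widest range of any class, from Lcp1 at 186 ± 16.2 TPM to Fscn1 at 0.467 ± 0.140 TPM (SD, n = 3). Lcp1 encodes L-plastin, the bundling protein of leukocytes, and its relative Pls3 was at 1.37, 1.07 and 1.02 TPM. Flna, the gene of filamin A, which joins filaments at wide angles, stood at 54.3, 45.0 and 56.6 TPM. The alpha-actinin genes Actn4 and Actn1 stood at 31.6 ± 2.93 and 15.6 ± 0.560 TPM, a log2 ratio of 1.06, 1.14 and 0.85. Their ranges did not overlap, but with protein-coding transcripts only the mean ratio was 0.38. Fscn1, which encodes fascin, a bundler of filopodia, had 34, 230 and 60 expected counts, or 0.510, 0.580 and 0.310 TPM.

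Genes that tie actin to the membrane showed a strong preference within each family. Tln1, the gene of talin 1, which links integrins to actin, stood at 60.5, 56.5 and 56.7 TPM, while Tln2 was at 0.0200 to 0.0800 TPM. Vcl, the gene of vinculin, which reinforces that link, was much lower at 5.56, 4.96 and 5.61 TPM. Msn, the gene of moesin, which tethers cortical actin to membrane proteins, stood at 111, 89.2 and 86.3 TPM. Its relatives Rdx and Ezr, the genes of radixin and ezrin, averaged 16.9 ± 2.16 and 5.79 ± 0.746 TPM (SD, n = 3), so moesin RNA exceeded radixin RNA by a log2 ratio of 2.48 ± 0.041 and ezrin RNA by 4.02 ± 0.11.

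The myosin II genes were led by a light chain. Myl6, which encodes the essential light chain, stood at 327, 322 and 286 TPM, against 0.510, 0.460 and 0.440 TPM for Myl6b. Myh9, the non-muscle heavy chain IIA, stood at 50.5, 45.0 and 46.4 TPM, against 0.713 ± 0.0814 TPM for the IIB gene Myh10 and 0 in every library for the IIC gene Myh14. Of the regulatory light chains, Myl12b was at 72.0, 74.1 and 55.3 TPM and Myl12a at 64.0, 53.5 and 53.0 TPM, while Myl9 of smooth muscle was at 0 in every library. The median log2 TPM of the myosin II genes exceeded that of the crosslinkers by 1.01, 0.93 and 0.94, but by expected counts the difference was -0.35 ± 0.032.

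The log2 ratio of Myl12a over Myl12b was -0.17, -0.47 and -0.06, their ranges overlapped, and the direction depended on which transcripts were counted. The first 90 coding bases of Myl12a-208 and Myl12b-204 are shown from the GENCODE M21 transcripts, with the 4 differing bases in capitals, since near-identical sequence limits how reads can be assigned.
Myl12a: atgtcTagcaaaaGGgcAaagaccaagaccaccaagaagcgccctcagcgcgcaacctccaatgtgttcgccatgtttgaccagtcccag
Myl12b: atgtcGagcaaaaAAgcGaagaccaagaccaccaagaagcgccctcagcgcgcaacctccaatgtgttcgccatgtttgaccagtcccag
The coding sequences of 516 bases were 96.5% identical, and the longest run shared by the whole transcripts was 120 bases. The genes neighbour each other on the minus strand of chromosome 17 of mm10, Myl12b at 70973133 to 70990890 and Myl12a at 70993656 to 71002878. A second identifier with the symbol Myl12b spans both, from 70974119 to 71002208, and was listed at 38.0, 46.4 and 34.1 TPM. In addition, 42.3% of the TPM of Myl12b was assigned to transcripts annotated as retained introns. Counting protein-coding transcripts only, Myl12a stood at 56.2 ± 6.42 TPM and Myl12b at 38.8 ± 6.53 TPM (SD, n = 3), and the log2 ratio was 0.54. With both Myl12b identifiers summed it was -0.90. Whether 1 of the 2 genes exceeded the other could therefore not be settled.

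The tropomyosins, coiled coils that run along filaments, were led by Tpm3. It stood at 150, 140 and 129 TPM, above Tpm4 at 49.3, 41.6 and 43.3 TPM and Tpm1 at 16.5 ± 2.49 TPM (SD, n = 3), while Tpm2 was at 0.020 to 0.060 TPM. The log2 ratio of Tpm3 over Tpm4 was 1.64 ± 0.090. In the leading transcript of Tpm3 75.7% of 31-base words also occur in other genes, and the retrogene copy Tpm3-rs7 averaged 5.13 rescaled TPM in the gene table and 1.23 in the second transcript table.

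Among the small GTPases, switches that direct actin assembly, Cdc42 was the highest. Cdc42, which acts on filopodia and WASP, stood at 206, 163 and 157 TPM, and Rac1, which acts on ruffles and WAVE, at 122, 98.9 and 89.7 TPM, a log2 ratio of 0.76 ± 0.043 (SD, n = 3). With protein-coding transcripts only it was 1.60. Rhoa, which drives contraction, stood at 103, 83.3 and 79.3 TPM and exceeded Rhoc (20.2, 19.0 and 20.5 TPM) in every library. The ratio of Rhoa over Rhob, an early-response member of the family, was 0.99, 0.92 and 0.24. In replicate 3 Rhoa was thus little above Rhob, which stood there at 66.9 TPM against 52.0 and 44.1 TPM in replicates 1 and 2.

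The GTPase effectors were lower than the GTPases. Diaph1, the formin mDia1 that elongates unbranched filaments, stood at 19.0, 15.8 and 15.9 TPM, above Diaph2 at 7.75 ± 1.03 and Diaph3 at 0.623 ± 0.0723 TPM (SD, n = 3). Rock1, the kinase that activates myosin II, stood at 13.0, 10.1 and 9.94 TPM, against 6.96, 5.74 and 5.73 TPM for Rock2. The median log2 TPM of the GTPases exceeded that of the effectors by 2.71, 2.71 and 2.65 (mean 2.69 ± 0.037).

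Ordered by mean rescaled TPM, the 40 genes gave 39 pairs of neighbours, of which 15 did not overlap over the 3 libraries. The ranges of Tmsb4x and Actb overlapped, as did those of Pfn1 and Vim, of Vim and Myl6, and of Myl6 and Cfl1. Within libraries Pfn1 was above Vim and Vim above Myl6 in all 3, and the other 2 of these pairs kept their order in 2 of 3. After Cfl1 a gap followed, and from Actr3 through Lcp1, Capg, Cdc42, Arpc2, Cotl1, Arpc3 and Arpc1b to Tpm3 each gene overlapped with the next. Within libraries, 22 of the 39 pairs kept the same order in all 3.

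Which library was the highest depended on the scale. On deposited TPM, 34 of 40 genes were highest in replicate 1, against 82.1% of the 9165 expressed nuclear protein-coding genes, so the members followed the library as a whole. After rescaling, 9 were highest in replicate 1, 11 in replicate 2 and 20 in replicate 3, against 30.4%, 31.3% and 38.3% of those genes. With the second transcript table the counts were 4, 12 and 24, and with the size factors of edgeR or DESeq2 10, 11 and 19. In bulk RNA, fewer cells of a type and less RNA per cell cannot be told apart.

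**Figure D3:**
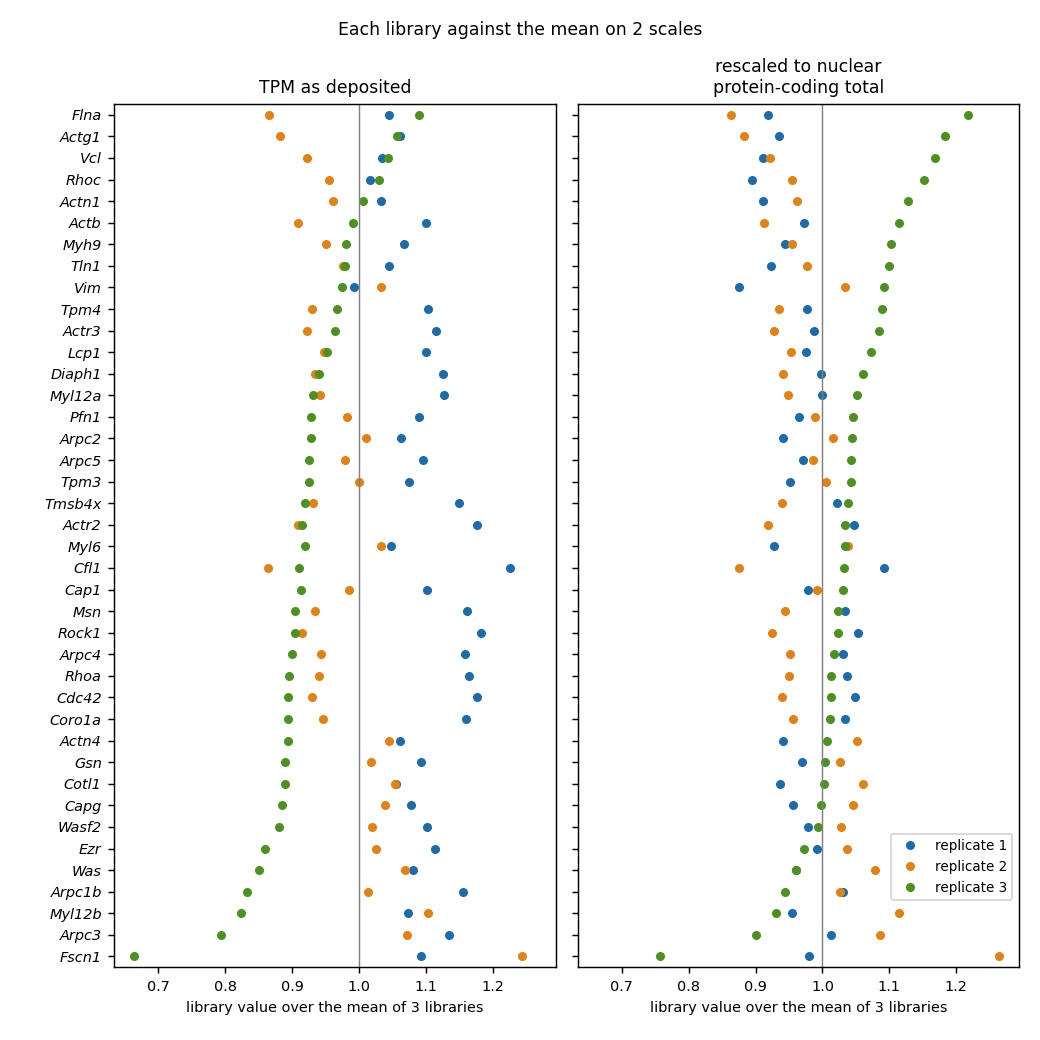
Value of each library over the mean of the 3 libraries for each of the 40 genes, on deposited TPM at left and on rescaled TPM at right, ordered by replicate 3 on the rescaled scale. On deposited TPM replicate 1 lies to the right for 34 genes, and after rescaling replicate 3 is highest for 20 genes. Rescaling brings the 3 libraries closer together for some genes, such as Cfl1 and Arpc3, and further apart for others, such as Flna and Vim.

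The libraries differed little once rescaled. The median coefficient of variation over libraries was 6.24% for the 40 genes, beside 7.02% for all expressed nuclear protein-coding genes. The highest library was under 1.3 times the lowest for 37 of 40 genes, a limit for which no share over all expressed genes was computed. Fscn1 alone was over 1.5 times, at 1.67, against 6.25% of expressed nuclear protein-coding genes, among which its own mean was too low to count. With 34 to 230 counts its values were 2.04, 2.64 and 1.58 rescaled TPM, and without replicate 2 or without replicate 3 no member was over 1.5 times.

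On rescaled TPM the members with the widest spread after Fscn1 were high in replicate 3. Rescaled Flna was at 217, 204 and 288, a highest over lowest of 1.41, and rescaled Actg1 at 2439, 2303 and 3090, a value of 1.34. Rhoc and Vcl followed at 1.29 and 1.28. In each of these 4 genes replicate 3 lay above both other libraries, which lay close together. Actb also had replicate 3 highest, at a smaller size, with 7855, 7372 and 8992 rescaled TPM. On deposited TPM replicate 3 was the highest for Flna, Rhoc and Vcl but not for Actg1, and replicate 1 lay near it in all 4. On that scale the widest spread after Fscn1 was that of Arpc3 (1.43) and Cfl1 (1.42). The nuclear RNA Malat1 was also the highest in replicate 3, at 359, 248 and 763 TPM, and Neat1 was at 31.7, 23.6 and 83.9 TPM. Their part in the spread of the members was not tested.

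Vim, the gene of vimentin, the intermediate filament of macrophages and mesenchymal cells, was the member whose leading transcript differed between the transcript tables. It lies at 13573927 to 13582826 on chromosome 2 of mm10 and stood at 361, 376 and 354 TPM (mean 364 ± 10.8, SD, n = 3). In the first transcript table the short transcript Vim-203, 535 bases long and annotated as a retained intron, held 40.7%, 37.9% and 41.8% of that TPM. The full-length coding transcript Vim-201, of 2193 bases, held 41.2%, 38.3% and 34.8%. In the second transcript table Vim-201 held 59.7%, 65.6% and 59.8% and Vim-203 37.2%, 29.2% and 32.6%. Over coding transcripts only, Vim stood at 216 ± 14.5 TPM.

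For 39 of 40 members the leading transcript was the same in both transcript tables, against 89.8% of expressed nuclear protein-coding genes with at least 2 transcripts. Vim was the exception, and leaving out 1 library gave 38 to 40. In the first table the leading transcript held at least 90% of the gene's TPM for 24 members. It held under 60% for Arpc4, Lcp1, Myl12b, Diaph1 and Vim. No share over all expressed genes was computed for these limits. In Lcp1 the coding transcripts Lcp1-209 and Lcp1-206 held 54.5% ± 1.51 and 42.8% ± 0.917 (SD, n = 3), in the same order in every library. In Diaph1 the share of Diaph1-205 in the first table was 48.2%, 36.6% and 31%, and that of Diaph1-203 was 22.6%, 34.6% and 41.0%. The leading transcript in that table therefore differed in replicate 3. In the second table Diaph1-203 held only 2.93%, 0.00182% and 2.09%. There Diaph1-205 held 56.6%, 52.5% and 45.4% and Diaph1-201 38.5%, 46.1% and 49.1%. In Arpc4 the 3 coding transcripts Arpc4-203, Arpc4-201 and Arpc4-204 held 45.5%, 29.3% and 25.3% on average in the first table. In the second they held 53.1%, 11.9% and 34.9%.

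Some other shares differed between the tables, and these genes were chosen after their values were seen. Actg1-202 held 61.2% ± 5.20 of Actg1 in the first table and 95.3% ± 3.19 in the second. The coding fragment Tln1-206, of 836 bases, held 0%, 0% and 0.176% of Tln1 in replicates 1, 2 and 3 of the first table and 28.2% ± 2.54 in the second. In Flna the processed transcript Flna-215, of 738 bases, held 17.6%, 12.3% and 10.2% in the first table and 0 in the second (SD, n = 3 throughout). At the gene level the tables stayed close. After rescaling, no member differed over 1.5 times between them, against 2.02% of expressed nuclear protein-coding genes. Within 0.9 to 1.1 times lay 32 of 40, a range for which no share over all expressed genes was computed. The values of the second table over the gene table were highest for Tln1 (1.32) and Arpc4 (1.23) and lowest for Flna (0.819) and Vim (0.830).

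**Figure D4:**
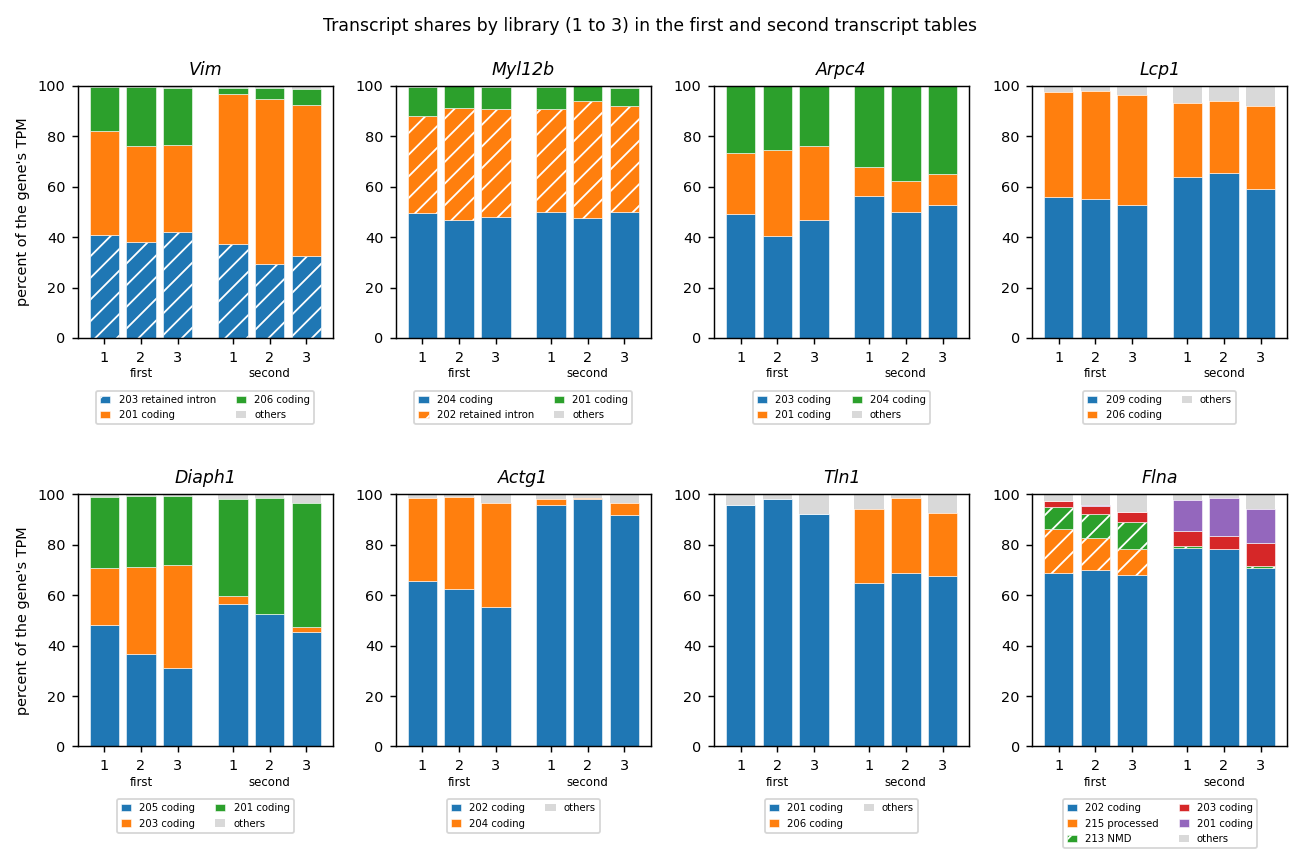
Percent of a gene's TPM held by each transcript in replicates 1 to 3, in the first transcript table at left and the second at right of each panel, with hatched bars for transcripts not annotated as protein coding. Vim-203 holds about as much as Vim-201 in the first table and less in the second, and Actg1-202 takes a larger share of Actg1 in the second table than in the first.

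Retained-intron transcripts held over 20% of the TPM of 2 members, Vim and Myl12b, or 2 of 40, against 5.80% of expressed nuclear protein-coding genes. Over all 40 members they held 2.56%, 2.85% and 3.48% of summed TPM in replicates 1, 2 and 3. Expressed nuclear protein-coding genes gave 2.91%, 3.00% and 3.39%. Without Vim and Myl12b the other 38 members held 0.651%, 0.614% and 1.3%, while the comparison genes kept their own high genes. Fscn1 followed at 18.6% of its mean TPM, all of it from replicate 1 (51.0%, 0% and 0%), where it had 34 expected counts. Actr3 was next at 8.0% and Arpc1b at 4.43%. These shares come from the first transcript table. In the second, retained-intron transcripts held 2.19% of Actr3, 3.90% of Arpc1b and 6.75% of Coro1a, which was at 3.76% in the first. Of the 28 members with any such signal, 22 (78.6%) had the highest share in replicate 3, beside 68.9% of 5515 genes. Replicate 3 was also the library with the highest Malat1, and the part of nuclear RNA in these shares was not tested.

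A further 106 genes of actin pathways were listed with earlier results of these data known. In every library 79 of them were at 1 TPM or more, against 40.5% of all nuclear-encoded protein-coding genes. Among other subunits and regulators of the Arp2/3 and WAVE complexes it was 12 of 17, led by the blood-cell genes Nckap1l, a WAVE complex subunit (76.3 ± 7.44 TPM, SD, n = 3), and Hcls1, a relative of cortactin (43.2 ± 5.55). Their widely expressed counterparts Nckap1 and Cttn stood at 0.677 and 0.420 TPM on average. Turnover factors gave 9 of 11, with Wdr1, a partner of cofilin, at 61.0 ± 6.83 TPM after Tmsb10. Cappers gave 10 of 12, led by the capping protein subunits Capzb (109.7 ± 11.2) and Capza2 (76.5 ± 13.1), while Scin and Vil1 were below 0.1 TPM.

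Adhesion and podosome genes gave 13 of 15, led by the integrin chains Itgb1 (95.9 ± 6.24 TPM, SD, n = 3) and Itgb2 (90.1 ± 5.70), with Enah and Tln2 below the limit. Filament binders and crosslinkers gave 7 of 12, led by Marcks (87.7 ± 21.6) and Coro1c. Pls1, Tpm2 and the muscle genes Flnc, Actn2 and Actn3 did not reach the limit in every library. Myosin and ERM genes gave 9 of 14, led by the vesicle motor Myo5a (171 ± 20.4) and Myo1f (99.4 ± 13.8), a motor of leukocytes. Mylk, the kinase of smooth muscle myosin, was at 0.060 TPM. GTPase pathway genes gave 16 of 18, led by the inhibitors Arhgdia (174 ± 20.8) and Arhgdib (110.2 ± 25.3), with Rhoj and Diaph3 below the limit. All 3 genes of the SRF pathway were present, Mrtfa at 16.7 ± 2.27, Mrtfb at 8.07 ± 1.08 and Srf at 5.68 ± 0.384 TPM.

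SRF binds the CArG box in promoters of many actin genes, and the MRTF coactivators, which are released when actin monomers are used up, act through SRF. RefSeq promoters of GRCm38.p6, from 250 bases before to 50 bases after a start site, were searched on both strands for the CArG box as the only motif. Entries were found for 36 of 40 members, with 43 promoters, and Actb, Cotl1, Diaph1 and Rock1 had none. The box occurred in 4 of the 43 promoters (9.30%), beside 535 of all 32851 promoters (1.63%). A match describes letters in this window and is not a measured site. The 60 bases around each match are shown, read along the strand of the gene, with the box in capitals.
Actg1, chr11:120348551-120348610, minus strand: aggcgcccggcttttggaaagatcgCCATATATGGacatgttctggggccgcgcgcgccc
Arpc4, chr6:113377863-113377922, plus strand: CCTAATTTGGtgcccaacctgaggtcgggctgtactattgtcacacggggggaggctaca
Myl6, chr10:128493025-128493084, minus strand: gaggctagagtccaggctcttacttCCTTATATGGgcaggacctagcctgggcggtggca
Vcl, chr14:20929148-20929207, plus strand: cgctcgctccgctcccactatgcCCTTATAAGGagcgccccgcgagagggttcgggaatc
The box began 90, 250, 50 and 227 bases before the start site in Actg1, Arpc4, Myl6 and Vcl. The Myl6 window lies within that gene, which spans 128490860 to 128494145. Its start site there is therefore an internal one and not the 5' end of the gene. Rescaled Srf was at 22.5, 24.2 and 31.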

How the data were processed

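The labels' replicate numbers 1 to 3 name 3 libraries of 1 group. Each came with a gene table, a first transcript table and a second transcript table on mm10 with GENCODE M21, per the notes deposited with each library. Per those notes the first 2 derive from alignments to the transcriptome and the last directly from the reads. The tools are named in no source used here; the headers match those of RSEM and of kallisto. The deposited expected counts are estimates and can hold fractions of a read. Deposited TPM values sum to a fixed total over all rows of a library. The deposited FPKM values were not used. The deposited percent of each transcript within its gene was recomputed from TPM. Rows that name no gene held 0.402%, 0.108% and 0.122% of expected counts and stayed out.

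Rescaled TPM divides by the TPM sum of nuclear-encoded protein-coding genes. Genes were called present at 1 TPM or more in every library. Pairs used log2(TPM + 0.1). Of the 2 Myl12b identifiers the one with the higher mean was used. Background shares cover nuclear protein-coding genes that averaged 1 TPM or more. The members, classes, pairs and further lists were chosen with earlier results of these data known. All 40 members, both genes of each pair, and from each further list the 2 highest genes and each gene below 1 TPM were named, apart from 1 pair of related genes that is not reported here, as were copies marked rs and members whose leading transcript held under 60%. Genes were not compared between conditions. Coding identity came from global alignment with Biopython 1.88.

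Alternatives were a pseudocount of 1, the second transcript table, posterior mean TPM, expected counts, other thresholds, edgeR 4.0.16 TMM factors with and without a filter at 10 counts, DESeq2 1.42.0 size factors on rounded expected counts, and leaving out each library. Protein-coding transcripts only and summed Myl12b identifiers were added after the data were seen. TMM factors were 1.04, 1.01 and 0.959 over 12430 genes. A gene listed at 0 can have up to 3 counts by counting error alone, or 0.110, 0.0368 and 0.0807 CPM. Procedures were tested on simulated data. Python 3.11.15, numpy 2.4.6, pandas 2.3.3 and R 4.3.3 were used.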

Additional observations from a re-analysis of the deposited data

How the results depend on the processing

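Over 39 results and 333 alternatives, 2 reversed. Of the 271 alternatives for paralog ratios 270 kept their direction, and the exception was Myl12a over Myl12b, 0.54 with protein-coding transcripts only. In 38 of the 271 the ratio moved by over 1.5 times: 13 by expected counts, 9 with a pseudocount of 1, 5 with protein-coding transcripts only, 4 on rescaled TPM, 4 in the second transcript table, 2 with posterior mean TPM and 1 with both Myl12b identifiers summed (-0.90). By expected counts Coro1a over Coro1c was -1.82, Rhoa over Rhoc 3.19, Was over Wasl 1.31, Arpc5 over Arpc5l 4.22 and Tmsb4x over Tmsb10 3.39, and with protein-coding transcripts only Cfl1 over Cfl2 was 7.72. Of 62 alternatives for the other 9 results, 46 stayed within the spread or the limit, 15 moved and 1 reversed. By expected counts, which are not divided by length, the members' share was 2.89%, and the class differences were 0.36 for turnover genes over Arp2/3 subunits, 1.95 for Arp2/3 subunits over regulators, -0.35 (reversed) for myosin II over crosslinkers and 1.18 for small GTPases over effectors. With the second transcript table the last 3 were 2.68, 1.03 and 2.64, and with protein-coding transcripts only the last 2 were 1.34 and 2.74. With a pseudocount of 1 the GTPase difference was 2.61. The count of members over 1.5 times between libraries was 0 at a threshold of 2 times, 0 in the second table, and 0 to 1 over left-out libraries. On TPM as deposited the 2 tables differed over 1.5 times for all 40 members, against 0 after rescaling, which sets both tables to the same total. No paired analysis was possible because there is 1 group. The limits are 3 libraries, 1 condition and few counts for Fscn1.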

Other observations

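Some relatives of the members outside the list varied more between libraries than the members did. Rescaled Rhob was at 208, 201 and 341 in replicates 1, 2 and 3, and rescaled Tmsb10 at 1137, 1615 and 1004. Marcksl1, a membrane and filament binding protein gene named after its values were seen, was at 180, 67.8 and 57.3 rescaled TPM, with replicate 1 the highest. Their highest library was 1.70, 1.61 and 3.15 times the lowest, above every member but Fscn1 in the case of Tmsb10 and above every member in the case of Rhob and Marcksl1.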
